A study of Mus musculus with 6 samples.

Results

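The uroplakins are membrane proteins of the urothelium, the lining of the bladder and ureters. Expression of the 6 uroplakin genes *Upk1a*, *Upk1b*, *Upk2*, *Upk3a*, *Upk3b* and *Upk3bl* was examined in primary mouse mammary epithelial cells (MEC) and in cell lines from JNK-deficient breast tumors (MEKO). The genes were selected by family name, with results of the same comparison known, and for each gene the table entry with the highest mean was read. Each of the 6 genes had 1 entry, of 37753 entries with values. Because the MEC to MEKO contrast contributed to their selection, the uroplakin values are described here without a test.

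RNA-seq libraries were made from 3 preparations of MEC and from 3 MEKO lines, numbered 199, 233 and 336, with 1 library each. MEC were isolated from virgin C57/Bl6J females of genotype WAPCre+ aged 10 to 12 weeks, 3 to 5 animals were pooled for a preparation, and the primary cells were harvested from collagen I shortly before confluence. The MEKO lines had the genotype Mapk8KO Mapk9KO Cre+ on the same strain and were established from tumors of parous mice, with 2 passages on collagen I dishes and later growth on regular dishes. *Mapk8* and *Mapk9* encode the kinases JNK1 and JNK2. Both groups carried Cre, and the *Wap* promoter that drives it is induced in luminal cells during pregnancy and lactation. The ages of the tumor-bearing mice were not given in the labels used here, and the study reports palpable tumors at a median age above that of the MEC donors. Genotype, parity, animal age, tumor origin, culture surface and time in culture differ together between the groups and cannot be told apart.

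In the urothelium, uroplakins assemble into rigid plaques that cover the apical surface of umbrella cells and contribute to the barrier against urine. *Upk1a* and *Upk1b* encode tetraspanins, proteins that cross the membrane repeatedly and carry partner proteins to the cell surface. UPK1A pairs with UPK2, and UPK1B pairs with UPK3A or UPK3B, each of which crosses the membrane once. A partner is generally needed for exit from the endoplasmic reticulum, although UPK1B can leave alone. *Upk3b* is also known as a transcript of mesothelium, and *Upk3bl* is a less studied relative named for its similarity to *Upk3b*.

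*Upk3b* and *Upk3bl* lie beside each other on the plus strand of chromosome 5, and the letters in front of both genes are shown because these neighbours had the largest increases of the family. In GENCODE M21 on GRCm38, *Upk3b* (ENSMUSG00000042985.7) spans chr5:136038496-136046487 and *Upk3bl* (ENSMUSG00000006143.12) spans chr5:136054492-136064326, with 8.01 kb between the end of the first and the start of the second. The 250 bases upstream of the RefSeq start are at chr5:136038246-136038495 for *Upk3b* and at chr5:136057017-136057266 for *Upk3bl* (GRCm38.p6, plus strand, 5′ to 3′). The *Upk3bl* window is inside the GENCODE gene span, because GENCODE lists 6 transcripts and some of them start further upstream. Capitals mark matches to 5 motifs searched on both strands.
Upk3b: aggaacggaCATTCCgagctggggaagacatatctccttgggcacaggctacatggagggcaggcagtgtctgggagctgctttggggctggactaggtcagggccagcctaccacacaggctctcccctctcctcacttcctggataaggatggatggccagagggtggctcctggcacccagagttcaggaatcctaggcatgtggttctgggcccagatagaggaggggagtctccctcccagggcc
Upk3bl: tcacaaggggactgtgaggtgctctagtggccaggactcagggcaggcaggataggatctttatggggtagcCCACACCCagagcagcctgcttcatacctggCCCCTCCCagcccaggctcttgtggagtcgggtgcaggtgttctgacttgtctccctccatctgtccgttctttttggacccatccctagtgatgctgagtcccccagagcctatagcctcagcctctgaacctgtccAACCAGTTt

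The *Upk3bl* window holds AACCAGTT from 9 to 2 bases upstream of the start, a match to the Grainyhead motif AACCNGTT, which 1.79% of 32851 RefSeq promoter windows of this length contain. It also holds CCACACCC and CCCCTCCC, matches to the KLF motif CCNCNCCC, which is in 45.9% of windows. The *Upk3b* window holds CATTCC, the TEAD motif, from 241 to 236 bases upstream, as do 12.6% of windows. Neither window has the AP-1 motif TGANTCA (6.75% of windows) or the GATA motif AGATAA (9.99%). Windows for *Upk1a* and *Upk3a* were also searched, so 4 of the 6 genes were matched, and AACCNGTT was in neither. Both of these windows held the KLF motif, as *Upk3bl* did, and the *Upk3a* window held the GATA motif. These matches describe letters only, and binding was not measured.

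Values are FPKM, fragment numbers scaled to transcript length and library size, which allow levels of different genes to be set side by side. They carry no read numbers, so depth is unknown and no counting interval can be given. Ratios of small values put the libraries at 0.92 to 1.3 times the depth of MEC 1. *Mapk8* was 23.1, 25.1 and 19.2 FPKM in MEC 1 to 3 and 5.93, 3.12 and 1.37 in lines 199, 233 and 336, and *Mapk9* was 24.4, 21.5 and 22.1 against 7.62, 3.15 and 3.07. Both targeted genes were lower in each line than in each MEC preparation, and the values cover the whole gene rather than the deleted part. The summed level of 12 luminal markers was 7270 to 10100 FPKM in MEC and 792 to 1970 in the lines. The hormone receptor gene *Pgr* was listed at 0 in the lines, and the luminal gene *Elf5* was at most 0.461 there. Another hormone receptor gene of the list, *Esr1*, overlapped between the groups. It was 2.35, 2.5 and 3.08 FPKM in MEC 1 to 3 and 1.56, 3.56 and 2.91 in lines 199, 233 and 336. For 10 basal markers the sum was 1660 to 3020 in MEC and 2770, 12.4 and 73.8 in lines 199, 233 and 336.

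*Upk3bl* was the most abundant uroplakin transcript in each MEKO line. It measured 0.642, 1.04 and 0.459 FPKM in MEC 1 to 3 and 40.4, 178 and 85.8 FPKM in lines 199, 233 and 336. The groups were far apart, with the lowest line well above the highest MEC preparation. Relative to the MEC mean, *Upk3bl* was higher by 56.5-fold, 249-fold and 120-fold in lines 199, 233 and 336. Relative to the highest MEC preparation, the ratios were 38.7, 171 and 82.1. The MEC values in these ratios were low and their counting error is unknown, so the size of the ratios is uncertain. The difference of mean log2(FPKM + 1) was 5.67, with an SD of 0.25 among MEC and 1.06 among the lines (n = 3 each). The spread among the lines was therefore wider than that among MEC, and smaller than the distance between the groups.

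The position of *Upk3bl* among all transcripts differed as much. Of entries above 0 in the same library, 31.1%, 30.4% and 23.6% had a lower FPKM than *Upk3bl* in MEC 1 to 3, whereas 87.8%, 97.7% and 94.2% were lower in lines 199, 233 and 336. Counted from the highest entry, *Upk3bl* ranked between 12171 and 13357 in MEC and at 2283, 393 and 1017 in the lines. There were 17343 to 18741 entries above 0 in a library.

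*Upk3b*, which encodes the UPK3 form shared with mesothelium, was near 0 in MEC and higher in the lines. It was listed at 0 in MEC 1 and MEC 2 and at 0.0129 FPKM in MEC 3, and it measured 0.165, 3.28 and 0.923 FPKM in lines 199, 233 and 336. The groups did not overlap, although line 199 stayed close to the MEC values. The log2(FPKM + 1) difference from the MEC mean was 0.21, 2.09 and 0.94 in the lines, in the same order, and 1.08 for the group means. Line 233 decided much of the group difference, which was 0.58 without that line. The order of the lines for *Upk3b* matched that for *Upk3bl*, with 199 lowest and 233 highest. With so few lines nothing is read from a shared order, and its share over all entries was not computed. *Upk3bl* exceeded *Upk3b* by 245-fold, 54.3-fold and 92.9-fold in lines 199, 233 and 336.

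*Upk3a* encodes the UPK3 form of the mature umbrella cell plaque. It measured 0.491, 0.137 and 0.212 FPKM in MEC 1 to 3 and was listed at 0 in lines 199, 233 and 336. All MEC values were above 0, but all were low. A listed 0 can also be a failed estimate, because *Vamp7*, a widely used vesicle fusion gene, was listed at 0 in all 6 libraries, so no fold change is given for *Upk3a*. *Upk3b* and *Upk3bl* were higher in the lines, and for *Upk3a* no direction is read from the listed zeros. The same limit touches *Upk3b*, which was listed at 0 in MEC 1 and MEC 2, and *Upk2*, which was listed at 0 in line 233.

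Of the tetraspanin members, *Upk1b* was the most abundant uroplakin in MEC 1 and MEC 2. It measured 2.85 and 2.84 FPKM there, 0.648 in MEC 3, and 0.187, 0.226 and 0.175 FPKM in lines 199, 233 and 336. MEC 3 was lower than the other MEC preparations but above each line. The lines were at 8.86%, 10.7% and 8.29% of the MEC mean, and the difference of mean log2(FPKM + 1) was -1.28 (SD 0.71 in MEC and 0.03 in MEKO). Without MEC 3 the difference was -1.68. The summed level of 6 endothelial markers was also lower in MEC 3, at 18.9, 22.5 and 2.45 FPKM in MEC 1 to 3, with *Pecam1* at 4.88, 6.3 and 0.784. In lines 199, 233 and 336 the same sum was 0.302, 0.21 and 2.06. Among MEC, the adipocyte, basal, fibroblast, leukocyte and luminal marker sums were lowest in MEC 3 as well. In MEC 1 to 3 they were 7.76, 11.7 and 1.48 FPKM for adipocyte and 2700, 3020 and 1660 for basal markers. The part of any of these cell types in the *Upk1b* values was not tested. In such bulk samples, fewer cells of one type and less RNA per cell cannot be told apart.

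*Upk1a*, the tetraspanin partner of UPK2, had the smallest difference. It measured 0.265, 0.286 and 0.339 FPKM in MEC 1 to 3 and 0.344, 0.471 and 0.753 FPKM in lines 199, 233 and 336. The groups did not overlap, but line 199 lay next to MEC 3. The log2(FPKM + 1) difference was 0.22 (SD 0.04 in MEC and 0.19 in MEKO), and 0.12 without line 336. *Upk2* went the other way, at 0.84, 1.05 and 1.08 FPKM in MEC and 0.191, 0 and 0.239 FPKM in lines 199, 233 and 336. Its MEC values were close together and well above the lines, with line 233 listed at 0. The *Upk2* difference was -0.80 (SD 0.10 in MEC and 0.16 in MEKO). The transcripts of the partners *Upk1a* and *Upk2* therefore differed in opposite directions, and so did *Upk1b* and *Upk3b*. Listed zeros are among the values of *Upk2* and *Upk3b*.

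**Figure D1:**
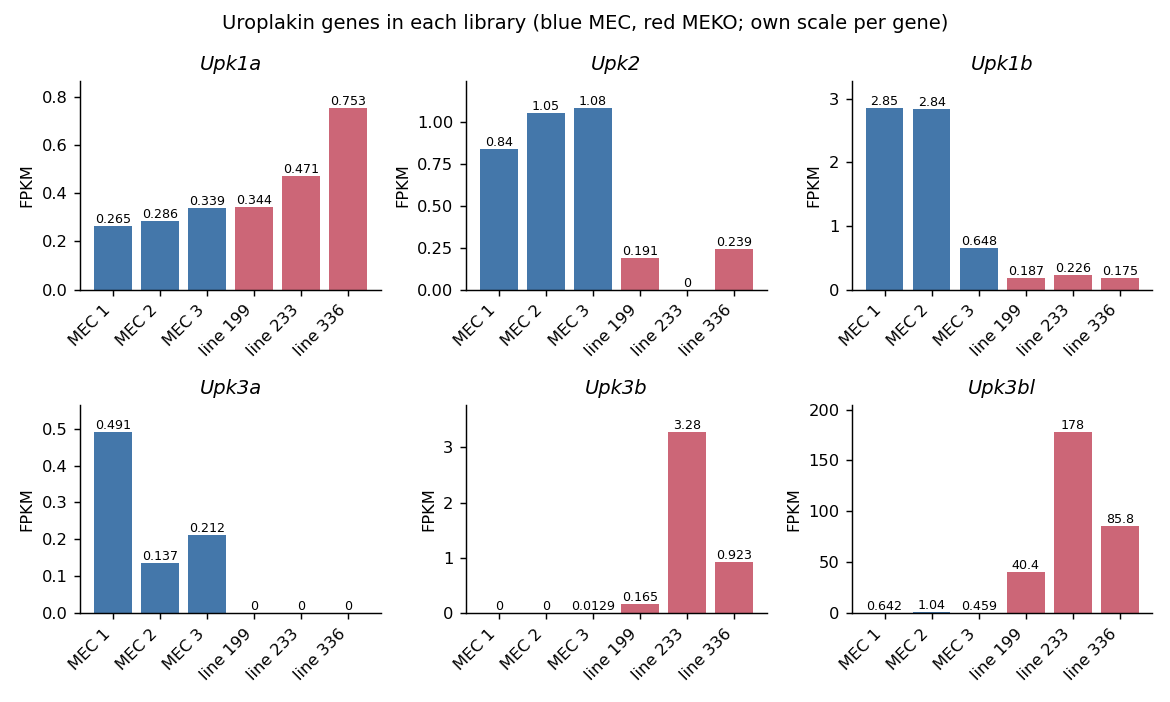
FPKM of the 6 uroplakin genes in each library, with MEC in blue and MEKO lines in red; each panel has its own vertical scale from 0 and 1 bar is 1 library. *Upk3bl* reached 40.4 to 178 FPKM in the lines against at most 1.04 in MEC, and *Upk3a* was listed at 0 in the 3 lines.

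Only *Upk1b* and *Upk3bl* had a mean of at least 1 FPKM over the 6 libraries, the level required for a gene to be tested here, so *Upk1a*, *Upk2*, *Upk3a* and *Upk3b* rest on values near the lower end of the table. *Upk1b* and *Upk3bl* reached that mean only through the group where they were high. *Upk3bl* was 0.459 to 1.04 FPKM in MEC and *Upk1b* was 0.175 to 0.226 in the lines, so their ratios also rest on low values. Groups did not overlap for any of the 6 genes, with 3 above MEC in the lines and 3 below, counting the listed zeros of *Upk3a* as values. Across the 21813 entries above 0 in at least 1 library, 13.0% lay wholly above MEC and 16.7% wholly below, and nothing is read from the count of 6, since the genes were selected with these values known. With a pseudocount of 0.1 in place of 1, the log2 differences of the low genes were larger, from 0.22 to 0.60 for *Upk1a*, from -1.28 to -2.66 for *Upk1b*, from -0.80 to -2.34 for *Upk2* and from 1.08 to 3.22 for *Upk3b*.

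The makeup of the family differed between the groups. Summed uroplakin FPKM was 5.08, 5.35 and 2.75 in MEC 1 to 3 and 41.3, 182 and 87.8 in lines 199, 233 and 336. *Upk3bl* was 12.6%, 19.5% and 16.7% of that sum in MEC and 97.9%, 97.8% and 97.6% in the lines. Without *Upk3bl* the sums were 4.44, 4.31 and 2.29 in MEC against 0.887, 3.98 and 2.09 in the lines, and these ranges overlapped. In line 233 most of the remainder was *Upk3b*. *Upk1b* was 56.0%, 53.0% and 23.5% of the family sum in MEC and at most 0.453% in a line.

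Within MEC the order of levels was *Upk1b*, *Upk2* and *Upk3bl*, followed by *Upk1a* and *Upk3a* and then *Upk3b*. *Upk1b* and *Upk2* changed places in MEC 3, and *Upk3a* was above *Upk1a* in MEC 1 only, so neither of these neighbouring steps exceeded the spread between preparations. The ranges of *Upk2* and *Upk3bl* overlapped across preparations, although *Upk2* was the higher in each. In the lines, *Upk3bl* was clear of the rest. *Upk3b* came next in lines 233 and 336 but was below *Upk1a*, *Upk2* and *Upk1b* in line 199. *Upk1b* and *Upk2* changed places between lines, and *Upk3a* was last in each, level with *Upk2* at a listed 0 in line 233.

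The genes beside *Upk3b* and *Upk3bl* were then examined. In this comparison and those that follow, a gene was called when its limma adjusted p was under 0.05 and its log2 fold change was beyond 0.75, which held in the higher direction for 2.64% and in the lower direction for 7.26% of 12461 tested entries. The p-values set the difference of the group means against the spread among these preparations and lines. That spread is taken as common to both groups, although for some genes the lines varied more than MEC. *Dtx2*, a regulator of Notch signaling upstream of *Upk3b*, measured 5.08, 5.8 and 5.44 FPKM in MEC and 8.73, 7.98 and 6.34 in the lines (log2 fold change 0.42, adjusted p = 0.182). *Rasa4*, which encodes a RAS GTPase-activating protein downstream of *Upk3bl*, measured 4.34, 5.17 and 2.35 in MEC and 22.8, 5.21 and 9.97 in the lines (1.29, adjusted p = 0.163). *Polr2j*, an RNA polymerase II subunit, and *Lrwd1*, a gene of DNA replication origins, had log2 fold changes of 0.54 (adjusted p = 0.0709) and 0.82 (adjusted p = 0.101). None of these neighbours was called, although each was higher in each line than in each MEC preparation. Of the 21813 entries above 0 in at least 1 library, 13.0% were likewise wholly above MEC. Farther upstream of *Upk3b*, *Ssc4d* was also above MEC and not called (0.68, limma adjusted p = 0.22), and *Zp3* was untested, at most 0.033 FPKM and overlapping.

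Over a wider stretch of chromosome 5, which includes *Dtx2*, *Rasa4*, *Polr2j* and *Lrwd1* again, the differences were also small beside that of *Upk3bl*. Genes of this stretch were matched by current symbol, so *Ssc4d*, listed under an older symbol, was left out. Other entries with older symbols may be missing too. Of the 27 other tested genes matched within 1 Mb of the *Upk3bl* start, 24, 24 and 25 were above the MEC mean in lines 199, 233 and 336. Their median log2(FPKM + 1) differences were 0.62, 0.48 and 0.43, against medians of 0.01, 0.00 and 0.02 for all tested entries in the same lines. The highest values among the 27 genes were 2.31, 2.28 and 1.89, each below the 4.61, 6.72 and 5.67 of *Upk3bl* in those lines. The heat shock gene *Hspb1* was the lowest of the 27 in each line, at -1.64, -4.18 and -1.01, and was named after its values were seen. The part of this stretch in the *Upk3bl* values was not tested.

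**Figure D2:**
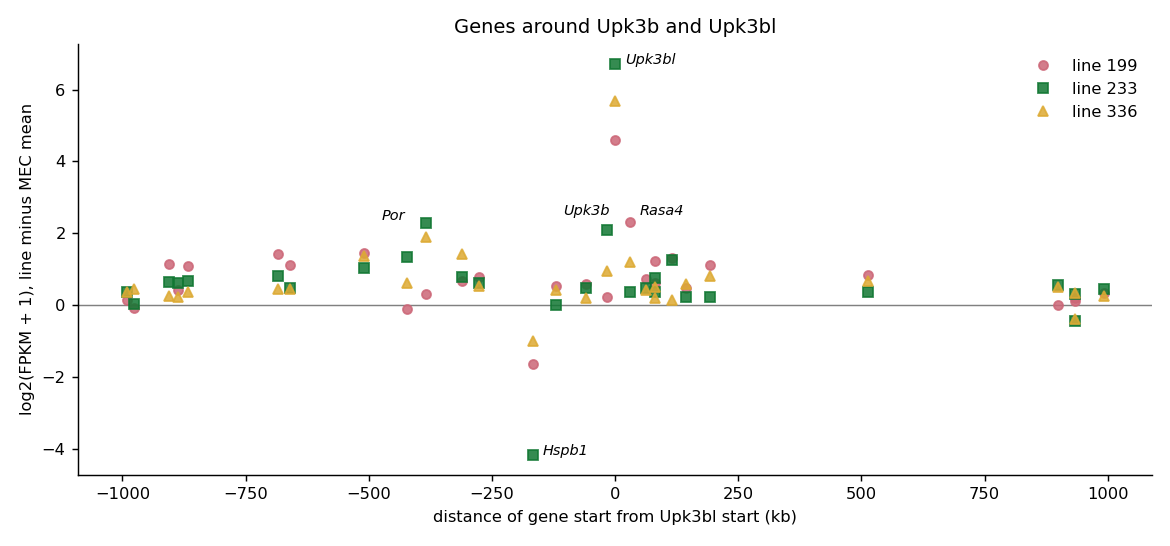
Difference of log2(FPKM + 1) from the MEC mean for tested genes and *Upk3b* within 1 Mb of the *Upk3bl* start, against distance of the gene start in kb; 1 symbol is 1 gene in 1 MEKO line. *Upk3bl* stands at 4.61 to 6.72 while the other 27 tested genes shown reach at most 2.31. Genes listed under an older symbol, such as *Ssc4d*, are not shown.

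The other uroplakin genes are on separate chromosomes, with *Upk1a* at chr7:30603092-30612847 (minus strand), *Upk1b* at chr16:38773184-38800328 (minus), *Upk2* at chr9:44452715-44454976 (minus) and *Upk3a* at chr15:85017141-85022547 (plus). Of the 30 protein-coding genes nearest to the 6 members, 3 on each side, 21 were tested and none was called in either direction by limma, with a median log2 fold change of 0.05. Of those, the unadjusted p was under 0.05 for *Tmem39a* beside *Upk1b* (0.0159), *5031439G07Rik* beside *Upk3a* (0.0418), *Rasa4* (0.0427), *Polr2j* (0.00984) and *Lrwd1* (0.0177). No annotated gene overlaps a uroplakin gene, and no 50-base stretch of a member's transcripts recurs in transcripts of another gene.

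Genes that regulate the urothelial program did not move together. Of 22 such transcription regulators, 20 were tested, 1 was called higher and 4 lower, and the median log2 fold change was -0.08, against 0.01 for all tested entries. *Gata3*, on an entry joined with a neighbouring noncoding transcript, was 16.2 ± 4.57 FPKM in MEC and 2.60 ± 2.67 in MEKO (SD, n = 3), a log2 fold change of -2.53 (SE 0.58, limma adjusted p = 0.0435). *Foxa1*, a pioneer factor of luminal and urothelial cells, fell from 15.6 ± 6.76 to 1.95 ± 1.26 FPKM (-2.49, limma adjusted p = 0.0198). *Tbx3* (-2.74, limma adjusted p = 0.0308) and the retinoic acid receptor gene *Rarb* (-2.06, limma adjusted p = 0.0193) were also called lower. *Gata3* and *Foxa1* are also on the mammary luminal list, so their calls are not particular to a urothelial program. *Klf4*, a factor of epithelial barrier differentiation, rose from 10.0 ± 2.22 to 25.4 ± 8.04 FPKM (1.22, limma adjusted p = 0.0487).

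These calls depended on single libraries and on the processing. *Klf4* was not called with a pseudocount of 0.1 (limma adjusted p = 0.0509), with no filter (0.0758), with a mean FPKM of at least 5 (0.0511), with upper-quartile scaling (0.0565) or with no mean-variance trend (0.0545). *Gata3* and *Tbx3* were not called with a pseudocount of 0.1 (0.0789 and 0.0795) or with no filter (0.0768 and 0.0574). None of the 5 calls was kept without MEC 1 (limma adjusted p from 0.0678 to 0.164) or without MEC 2 (0.0586 to 0.13). Without MEC 3, those of *Gata3* (0.155), *Tbx3* (0.108) and *Klf4* (0.16) were lost. Without line 233, those of *Gata3* (0.1), *Foxa1* (0.0594), *Klf4* (0.118) and *Rarb* (0.0502) were lost. *Klf4* was also not called without line 199 (0.0817), nor *Tbx3* without line 336 (0.0839). The number of regulators called lower was 0 without MEC 1 or MEC 2, 2 without MEC 3 and 1 without line 233.

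*Pparg*, a nuclear receptor that drives umbrella cell differentiation, measured 0.486, 0.872 and 0.277 FPKM in MEC and 0.573, 7.04 and 3.74 in lines 199, 233 and 336. Line 199 lay within the MEC range and the other lines above it (log2 fold change 1.36, limma adjusted p = 0.198, and from 0.0152 without line 199 to 0.4 over the alternatives). *Grhl3*, a Grainyhead factor of the urothelial barrier, was higher in each line, at 1.02 ± 0.285 FPKM in MEC and 2.38 ± 1.33 in MEKO, but was not called (0.68, limma adjusted p = 0.228). *Klf5* (0.87, limma adjusted p = 0.277), *Elf3* (-0.24, limma adjusted p = 0.735) and the basal cell factor *Trp63* (-1.24, limma adjusted p = 0.422) overlapped between groups and were not called. Without line 199 the log2 fold change of *Elf3* was 0.205 (limma adjusted p = 0.578).

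Umbrella cells are the superficial cells in which uroplakins are normally made. Of 18 umbrella cell genes, 15 were tested, 1 was called higher and 6 lower, with a median log2 fold change of -1.32. The gene called higher was *Psca*, which encodes a GPI-anchored surface protein of urothelium and other epithelia. It measured 0.0709, 0 and 0 FPKM in MEC and 4.85, 11.2 and 7.38 in lines 199, 233 and 336 (3.04, SE 0.31, limma adjusted p = 0.00371). The simple keratin *Krt19* fell from 739 ± 355 to 17.4 ± 9.44 FPKM (-5.34, limma adjusted p = 0.00382), and *Krt8* fell from 2600 ± 782 to 405 ± 159 (-2.72, limma adjusted p = 0.0106). The mucin *Muc1* (-2.94, limma adjusted p = 0.04) and the tight junction gene *Tjp3* (-2.49, limma adjusted p = 0.00445) were also called lower. *Krt20*, a keratin of mature umbrella cells, measured 1.99 ± 0.843 FPKM in MEC and 0.864 ± 0.686 in MEKO and was not called (-0.73, limma adjusted p = 0.271).

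The umbrella genes *Krt8*, *Krt18*, *Krt19*, *Epcam* and *Cdh1* are also on the mammary luminal list, and the defining uroplakin plaque transcripts *Upk1a*, *Upk2* and *Upk3a* were at most 1.08 FPKM in any library. *Psca*, *Krt19* and *Tjp3* remained called without each library in turn. *Krt8* was not called without MEC 1 (0.0596) or MEC 2 (0.0521), and *Muc1* was not called without MEC 1 (0.145), MEC 2 (0.136), MEC 3 (0.13) or line 336 (0.106), with a pseudocount of 0.1 (0.0732) or with no filter (0.0716). The number called lower was 3 without MEC 1 or MEC 2 and 4 without MEC 3. Of 12 urothelial basal cell genes, 11 were tested and none was called by limma, with a median of -0.98 and no unadjusted p under 0.05. *Krt5*, a basal keratin, measured 435, 339 and 201 FPKM in MEC and 608, 1.33 and 15.3 in lines 199, 233 and 336 (-3.45, limma adjusted p = 0.282, and from 0.0145 without line 199 to 0.537 over the alternatives).

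Uroplakins reach the apical surface in fusiform vesicles. Of 18 genes of that route, 16 were tested, none was called higher and 1 was called lower, with a median of -0.29. The vesicle GTPase gene *Rab3d* fell from 12.9 ± 3.84 to 3.25 ± 1.21 FPKM (-1.72, limma adjusted p = 0.0208), and was not called without MEC 1 (0.0865), MEC 2 (0.07), MEC 3 (0.0737) or line 336 (0.0512). *Mal*, which encodes a protein required for apical insertion of uroplakin vesicles, measured 18.1, 19.7 and 19.5 FPKM in MEC and 101, 74.5 and 24.4 in lines 199, 233 and 336, above MEC in each line and not called (1.53, limma adjusted p = 0.108, and from 0.00817 without line 336 to 0.272 over the alternatives). *Rab27b*, a GTPase of these vesicles, measured 10.9 ± 1.48 FPKM in MEC and 4.94 ± 2.96 in MEKO (-1.17, limma adjusted p = 0.157). The sorting nexin *Snx31*, which is associated with uroplakin turnover, was at most 0.425 FPKM in any library.

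Other tetraspanins provide a setting for *Upk1a* and *Upk1b*. Of 29 further tetraspanin genes, 22 were tested, 2 were called higher and 8 lower, with a median log2 fold change of -0.72. *Tspan13* fell from 22.7 ± 2.96 to 0.521 ± 0.311 FPKM (-3.97, SE 0.22, limma adjusted p = 0.000906). *Tspan8* (-4.52, limma adjusted p = 0.0262), *Tspan1* (-3.31, limma adjusted p = 0.00407), *Tspan12* (-3.09, limma adjusted p = 0.00273) and *Tspan2* (-2.99, limma adjusted p = 0.0217) were also lower. *Tspan5*, which accompanies the protease ADAM10, and *Tspan4* were called higher, with log2 fold changes of 1.06 (limma adjusted p = 0.0124) and 0.80 (limma adjusted p = 0.0332). The number called lower was 4 without MEC 1, 4 without MEC 2 and 5 without MEC 3. *Tspan13*, *Tspan1* and *Tspan12* remained called without each library. *Tspan8* was not called without MEC 1, MEC 2, MEC 3 or line 336 (limma adjusted p from 0.0722 to 0.0798). *Tspan2* (0.059 to 0.0947) and *Tspan4* (0.0699 to 0.144) were not called without any of these or without line 233, and *Tspan5* was not called without MEC 1 (0.0769) or MEC 2 (0.07). With quantile normalization the log2 fold change of *Tspan4* did not pass the threshold.

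**Figure D3:**
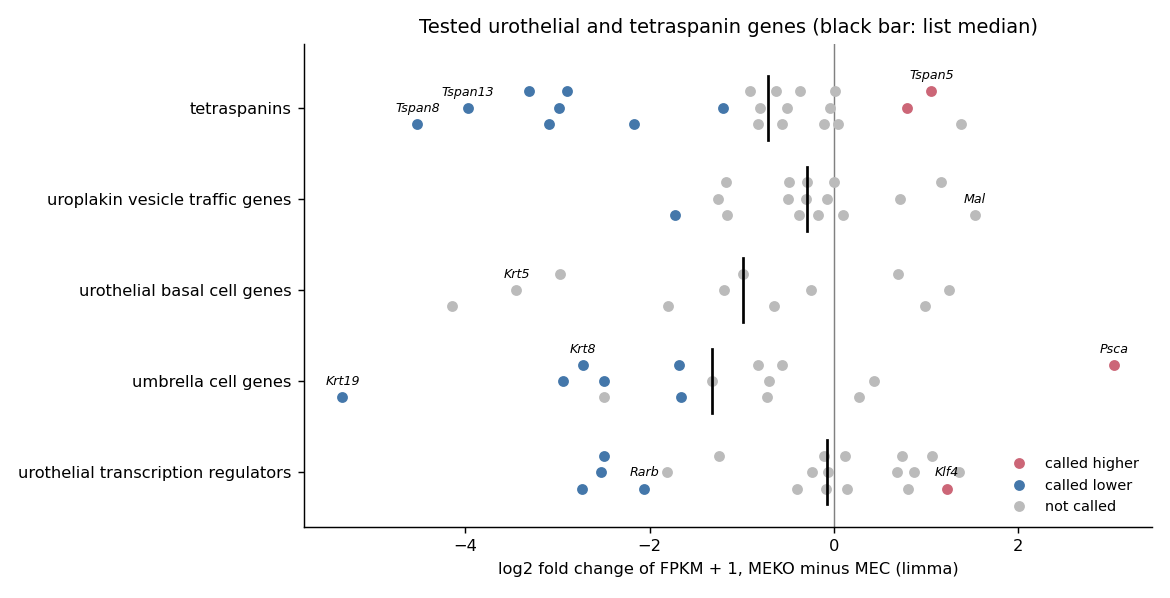
limma log2 fold change, MEKO minus MEC, on the log2(FPKM + 1) scale for the tested genes of 5 lists; 1 point is 1 gene, coloured by whether it was called, and the black bar is the list median. The medians run from -1.32 for umbrella cell genes to -0.08 for transcription regulators, and *Psca* at 3.04 is far to the right of the other umbrella cell genes.

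Because *Upk3b* is known from mesothelium, mesothelial markers were read beside it. Of 12 markers, 2 were tested and 1, *Msln*, was called higher. *Msln* encodes mesothelin, a surface protein of mesothelium and of several carcinomas. It measured 28.4, 12.2 and 11.7 FPKM in MEC and 125, 888 and 386 in lines 199, 233 and 336 (4.37, SE 0.73, limma adjusted p = 0.0177). It was not called without MEC 1 (0.0588), MEC 2 (0.081), MEC 3 (0.0784) or line 336 (0.0572). The summed level of the list was 41.1, 26.2 and 24.2 FPKM in MEC and 140, 891 and 387 in the lines, and in lines 233 and 336 nearly all of it was *Msln*. The other tested marker, *Bnc1*, which encodes a zinc finger protein also made by basal keratinocytes, went the other way in lines 233 and 336, at 10.6, 10.6 and 11.5 FPKM in MEC and 13.1, 1.46 and 0.157 in lines 199, 233 and 336 (-1.79, limma adjusted p = 0.229). Of the defining mesothelial genes, *Wt1* was listed at 0 in the 3 lines and was at most 0.131 in MEC, *Calb2* was listed at 0 in all libraries and *Lrrn4* was at most 0.0128, and such a listed 0 can be a failed estimate.

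Markers of other cell types were also read. The summed level of 9 fibroblast markers was 119 to 208 FPKM in MEC and 1110, 2.44 and 4.23 in the lines, with *Col1a1* at 600 in line 199 and at most 1.08 in the other lines, and *Pdgfra* between 0.423 and 1.31 in all libraries. The line with the highest *Upk3bl*, 233, was thus the line with the lowest fibroblast sum, and with so few lines nothing is read from that. The sum of 8 leukocyte markers was 75.1 to 121 in MEC and 7.45 to 62.2 in the lines, with *Ptprc* at most 0.0146 in a line. The sum of 5 adipocyte markers was 1.48 to 11.7 in MEC and 0.0898 to 1.19 in the lines, with *Adipoq* at most 0.155 in any library. By limma, 10 of 12 luminal, 3 of 10 tested basal, 1 of 6 tested fibroblast and 1 of 3 tested leukocyte markers were called lower and none higher. None of the 3 tested endothelial markers was called either way, and 2 of them had an unadjusted p under 0.05 (*Pecam1*, 0.0121, and *Cdh5*, 0.0138). The single tested adipocyte marker, *Fabp4*, was not called (unadjusted p = 0.0233).

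Genes with a profile like that of *Upk3bl* were sought over the 6 libraries by the mean absolute difference in log2(FPKM + 1) after centring each gene on its own mean. The 5 most similar entries were at 0.322 for *Klra4*, 0.347 for *Ptgs1*, 0.422 for *Aldh3a1*, 0.531 for *Hmga2* and 0.629 for *Prl2c5*, against a median of 2.83 for all tested entries. *Klra4*, a lectin-like receptor gene known from natural killer cells, measured 1.59, 0.294 and 0.589 FPKM in MEC and 40.9, 161 and 68.2 in lines 199, 233 and 336. *Ptgs1*, which encodes cyclooxygenase 1, measured 1.9, 2.83 and 4.14 in MEC and 62.5, 191 and 161 in the lines. *Aldh3a1*, an aldehyde dehydrogenase of barrier epithelia, measured 0.447, 0.567 and 0.934 in MEC and 56.1, 402 and 133 in the lines. Each of these genes had the order 199, 336 and 233 from low to high, as *Upk3bl* did. That likeness follows largely from the way the entries were picked, and nothing further is read from it.

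*Hmga2*, a chromatin protein of embryonic cells, was at 83.7, 116 and 75.8 FPKM in the lines, so line 336 rather than 199 was lowest. *Prl2c5* belongs to the proliferin genes, and both it and *Klra4* have close relatives between which reads may be split. For *Upk1b* the most similar entries were *Cmbl* (0.125), *Fam132b* (0.136), *Klk7* (0.153), an entry joining *Gm7694* and *Nos1ap* (0.163) and *Fam43a* (0.173), against a median of 0.759. *Klk7*, a protease of stratified epithelia, measured 2.42, 2.72 and 0.27 FPKM in MEC 1 to 3 and 0.0416, 0.113 and 0.443 in the lines. Its low MEC 3 value is shared with *Upk1b*, as the way it was picked favours.

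**Figure D4:**
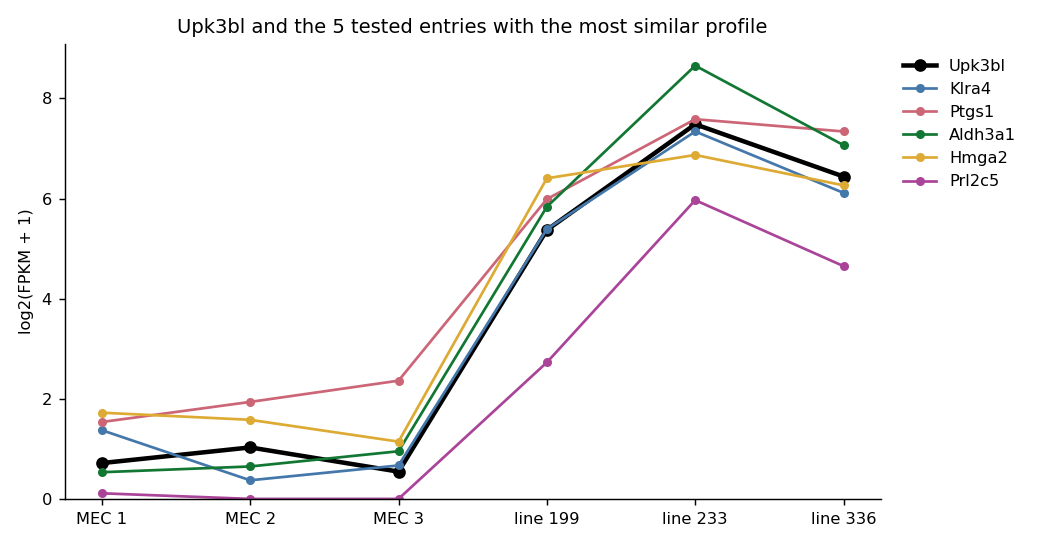
log2(FPKM + 1) of *Upk3bl* (thick black line) and of the 5 tested entries with the most similar profile in the 6 libraries; points are libraries and lines only join them. The MEC values are low for each gene, and line 233 is the highest library for all 6, a likeness for which the 5 entries were picked.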

How the data were processed

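RNA-seq libraries of 3 MEC preparations and 3 MEKO cell lines were analysed, grouped by sample title and genotype label. Per the labels and methods, the authors trimmed paired-end reads, aligned them to GRCm38 with Bowtie2 and TopHat2 2.0.14, and estimated expression with Cufflinks 2.2.1. The deposited values are the FPKM of each gene, in which Cufflinks scales fragment numbers to length and sequencing depth. The annotation they used and the strand setting are not given in the sources used here, so reads from overlapping antisense transcripts may be included. The table had 37755 entries, and 2 held no FPKM. No column of values was left out.

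Differential expression was tested with limma 3.58.1 in R 4.3.3 on log2(FPKM + 1), with a mean-variance trend, for the 12461 entries with a mean FPKM of at least 1, and adjusted by the Benjamini-Hochberg method. The thresholds were an adjusted p of 0.05 and a log2 fold change of 0.75, as in the study's methods; Cuffdiff was not repeated because it needs reads. The procedure was also run on simulated data, with the same spread in both groups and changes planted only in entries that were not low. That run does not cover low genes or unequal spreads. Fold changes of low genes are understated by the pseudocount of 1.

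The uroplakin genes and all gene lists were chosen with earlier results of these data known. Named genes were the members, *Mapk8* and *Mapk9*, up to 5 called genes by absolute fold change in the urothelial, traffic, tetraspanin and mesothelial lists, selected regulators and markers, neighbours within 3 protein-coding genes on each side, the 5 most similar profiles, and 1 marker or more of each other cell type. Other names were chosen after their values were seen, and these are *Hspb1*, *Vamp7*, *Elf5*, *Pgr*, *Esr1*, *Lrrn4*, *Bnc1*, *Calb2*, *Cdh5* and *Fabp4*. Older symbols were used for *Adgre1* and *Ssc4d*, except in the 1 Mb window around *Upk3bl*, which was matched by current symbol only. Positions came from GENCODE M21 and promoter windows from RefSeq. Alternatives were other pseudocounts, filters and normalizations, no trend, and each library left out in turn.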

Additional observations from a re-analysis of the deposited data

How the results depend on the processing

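The log2 differences of *Upk1a*, *Upk1b*, *Upk2*, *Upk3b* and *Upk3bl* kept their direction under another pseudocount, another normalization, the ratio of means and with 1 library left out, and none was computed for *Upk3a*. With a pseudocount of 0.1, the log2 differences were 0.60 for *Upk1a*, -2.66 for *Upk1b*, -2.34 for *Upk2*, 3.22 for *Upk3b* and 6.77 for *Upk3bl*, and with quantile normalization they were 0.46 for *Upk1a* and -0.59 for *Upk2*. With 1 library left out they ranged from 0.12 to 0.31 for *Upk1a*, from -1.68 to -1.07 for *Upk1b*, from -0.86 to -0.71 for *Upk2*, from 0.58 to 1.51 for *Upk3b* and from 5.14 to 6.20 for *Upk3bl*. The 329 entries called higher ranged from 49 without MEC 1 to 546 without line 199, and were 57 without MEC 2. The 905 called lower ranged from 251 without MEC 1 to 1340 without line 199, with 279 without MEC 2 and 457 without MEC 3, and were 501 with a mean FPKM of at least 5. Without MEC 3, 103 were called higher. Called entries were higher in 26.7% of cases, in 37.9% with quantile normalization (477 higher and 783 lower) and in 16.3% without MEC 1. The 4 transcription regulators called lower were 2 with a pseudocount of 0.1 and 2 with no filter, and ranged from 0 to 4 with 1 library left out. Umbrella cell genes called lower ranged from 3 to 7, and tetraspanins from 4 to 9. *Elf3* turned from -0.24 to 0.205 without line 199 and was -0.52 without line 233. Of the other verdicts on single genes, 421 kept the direction and side of the threshold, 73 lost a call and 12 gained one. The causes of these changes were not tested. No paired analysis was possible because the MEC numbers and the line numbers have none in common. The means of *Upk1a*, *Upk2*, *Upk3a* and *Upk3b* were under 1 FPKM, and without read numbers their counting error is unknown. The same holds for the low values of *Upk3bl* in MEC and of *Upk1b* in the lines.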
